A study of Rattus norvegicus with 12 samples.

Results

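Genes of bone morphogenetic protein (BMP) signalling were measured in the hippocampus of 2 rat lines bred for opposite locomotor responses to an unfamiliar place. The set was defined by name and holds 10 genes: the ligands Bmp2, Bmp3, Bmp4, Bmp6 and Bmp7, the receptors Bmpr1a, Bmpr1b, Bmpr2 and Acvr1, and the intracellular messenger Smad1. A row of the expression table belonged to a gene where the number in the row's name was the gene's Entrez identifier, which gave 8 of the 10 among 9962 measured genes. Bmp6 and Bmpr1b had no row and were not analysed here.

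BMPs are secreted ligands of the TGF-beta superfamily. They bring together type I receptors (Bmpr1a, Bmpr1b, Acvr1) and type II receptors (Bmpr2 among them); the type II kinase phosphorylates the type I kinase, which in turn phosphorylates Smad1 and its close relatives, and these enter the nucleus with Smad4 and switch on targets such as the Id genes. In the adult dentate gyrus of rodents, BMP signalling through Bmpr1a is known for holding neural stem cells in quiescence, and it steers glial precursors toward astrocytes and away from oligodendrocytes.

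The samples were whole hippocampi of adult male rats of generation 4 (P102-107, in postnatal days), 6 bred High Responder (bHR) and 6 bred Low Responder (bLR), which had been tested for locomotion between days 50 and 75. All were untreated as far as the labels say, and no unselected line was included, so a difference does not say which line had departed from the starting stock. In each line 1 array carried the submitters' mark of failed quality control, so that 5 per line were compared: bHR replicates 2 to 6, without replicate 1, and bLR replicates 1 to 4 and 6, without replicate 5. Replicates are numbered in accession order, and whether rats of a line shared litters is not stated. Values are log2 expression from Affymetrix RAE230A arrays, 1 value per gene and array, and the number of arrays limits their precision. Of 12 measured markers of hippocampal neurons, 11 lay above the median gene.

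Most of these genes gave weak signals. The mean log2 level over the 10 passing arrays was 4.48 for Bmp2, a level below which only 7.26% of all genes lay. The corresponding shares were 25.1% for Bmp3, 20.8% for Bmp4, 29.2% for Bmp7, 41.4% for Smad1, 45.1% for Bmpr1a, 48.9% for Acvr1 and 58.5% for Bmpr2. For scale, 31 genes specific to organs such as liver, pancreas or testis had mean levels from 4.23 to 5.75 with a median of 4.58. Bmpr2 lay above all 31, while 24 of the 31 were higher than Bmp2, 10 were higher than Bmp4, 7 than Bmp3, 6 than Bmp7, 4 than Smad1, 3 than Bmpr1a and 2 than Acvr1. Signals of different genes come from different probes, so these shares describe how far each signal stood from the floor of the array and give no order of abundance among the BMP genes. In whole tissue, fewer cells of a type and less RNA per cell cannot be told apart.

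**Figure D1:**
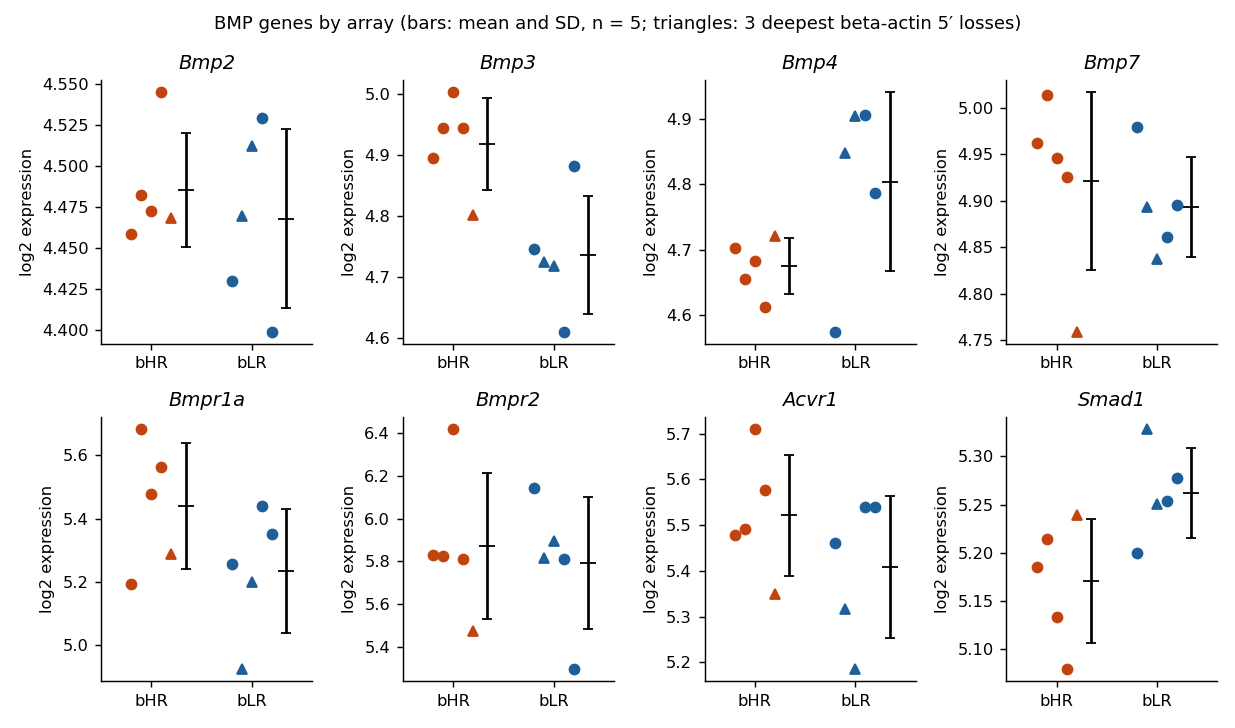
Log2 expression (y axis, a separate scale per panel) of the 8 measured BMP genes on the 10 passing arrays by line (x axis); points are arrays, bars give mean and SD (n = 5 per line), and triangles mark the 3 arrays with the deepest loss of beta-actin 5′ signal. The lines overlap in every panel; for Bmp3 the overlap comes from bHR replicate 6 (4.80) and bLR replicate 6 (4.88).

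Between the lines, none of the 8 genes passed the test over all genes (limma, Benjamini-Hochberg adjusted p = 0.992 for each), as was so for 0.0% of all 9962 genes (0 genes; 293, or 2.94%, had an unadjusted p under 0.05). The bHR mean was the higher one for 6 of the 8 and the lower one for 2, with a median difference of 0.054 on the log2 scale, against a median of 0.00078 and a share above 0 of 50.4% over all genes. One of them, Bmp3, had an unadjusted limma p under 0.05. None of the 8 separated the lines without overlap, and 0.291% of all genes did. Each gene was also tested alone by a two-sided exact permutation test over the 10 arrays, 8 tests in all and unadjusted. In it 5 against 5 cannot go below 0.0079. Bmp3 and Smad1 were under 0.05, but the share of all genes under 0.05 in this test was not computed. The unadjusted limma p of Smad1 was 0.053.

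Among the ligands, Bmp3 had the widest difference. Bmp3 is an atypical family member, known from rodent bone for opposing other BMPs. Its log2 levels in bHR replicates 2 to 6 were 4.90, 4.94, 5.00, 4.94 and 4.80, and in bLR replicates 1, 2, 3, 4 and 6 they were 4.75, 4.73, 4.72, 4.61 and 4.88. Of the 25 pairs of 1 bHR and 1 bLR array, bHR was higher in 24. The difference of the means, 4.92 ± 0.075 against 4.74 ± 0.097 (SD, n = 5 each), was 0.18 on the log2 scale (SE 0.055, 95% confidence interval 0.061 to 0.30), or 1.13-fold. It had an exact permutation p of 0.0159 and an unadjusted limma p of 0.0069, the 24th smallest of all genes, and it was not called after adjustment.

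Bmp4, which drives glial fate and stem cell quiescence in rodent brain, leaned the other way. Its levels were 4.70, 4.65, 4.68, 4.61 and 4.72 in bHR and 4.57, 4.85, 4.90, 4.91 and 4.79 in bLR, in the same order of replicates. The bHR arrays lay close together and 4 of the 5 bLR arrays were above all of them, but bLR replicate 1 was the lowest of the 10. The difference was -0.13 (SE 0.062, 95% confidence interval -0.27 to 0.0065; exact permutation p = 0.0873). Without bLR replicate 1, the array that makes the lines overlap, it was -0.19. No overlap is then left, which fixes the exact permutation p at the smallest value 5 against 4 allow, 0.0159. That array was picked from these same values, so this p is no separate evidence for a difference. Leaving out any other array gave a p of 0.0952 to 0.175 and a difference as small as -0.10.

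The remaining ligands had the smallest differences of the 8. Bmp2 ranged from 4.40 to 4.55 over all 10 arrays, with a difference of 0.017 (95% confidence interval -0.068 to 0.10). Bmp7, a ligand also made by meninges and choroid plexus in rodents, ranged from 4.76 (bHR replicate 6) to 5.01 (bHR replicate 3), with a difference of 0.028 (95% confidence interval -0.085 to 0.14). The upper limit for Bmp7 was 0.16 without bHR replicate 6 and 0.18 with Ttr as a covariate, so differences of that size are not excluded.

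The means of all 3 measured receptors were higher in bHR, and none was called. Bmpr1a, the type I receptor named above for stem cell quiescence, had log2 levels of 5.19, 5.68, 5.48, 5.56 and 5.29 in bHR and of 5.26, 4.92, 5.20, 5.44 and 5.35 in bLR. The 3 highest of the 10 values were bHR arrays and the lowest was bLR replicate 2, with the rest intermingled. Its difference was 0.21 (SE 0.11, 95% confidence interval -0.034 to 0.45; exact permutation p = 0.151), and 0.13 without bLR replicate 2.

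Acvr1, a type I receptor that serves Bmp6 and Bmp7 among others, had levels of 5.48, 5.49, 5.71, 5.58 and 5.35 in bHR and of 5.46, 5.32, 5.19, 5.54 and 5.54 in bLR. The lines intermingled except at the ends, with 2 bHR arrays highest and 2 bLR arrays lowest. The difference was 0.11 (SE 0.083, 95% confidence interval -0.069 to 0.29; exact permutation p = 0.254). Without bLR replicate 3, the lowest array, it was 0.057.

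Bmpr2, the type II receptor of the pathway, had the strongest signal against the floor and varied most from rat to rat. Its levels were 5.83, 5.83, 6.42, 5.81 and 5.48 in bHR and 6.14, 5.82, 5.90, 5.81 and 5.30 in bLR. Most arrays of both lines sat near 5.8, with bHR replicate 4 and bLR replicate 1 high and a low array, replicate 6, in each line. The difference of 0.080 (SE 0.18, 95% confidence interval -0.31 to 0.47) was smaller than the spread within either line (SD 0.34 in bHR and 0.31 in bLR, n = 5 each), and single arrays decided its sign and size. It fell to -0.056 when bHR replicate 4 was omitted and to -0.044 when bLR replicate 6 was, and it grew to 0.17 on omitting bLR replicate 1 and to 0.18 on omitting bHR replicate 6.

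Smad1, the messenger that BMP type I receptors phosphorylate, had log2 levels of 5.19, 5.21, 5.13, 5.08 and 5.24 in bHR and of 5.20, 5.33, 5.25, 5.25 and 5.28 in bLR. In bLR 4 of the 5 arrays lay above all bHR arrays. The difference was small and fairly even, -0.092 (SE 0.043, 95% confidence interval -0.19 to 0.0015), with bHR higher in 2 of 25 pairs. The exact permutation p was 0.0397. It rose above 0.05 on leaving out any of 7 arrays (bHR replicates 2, 4 and 5, bLR replicates 2, 3, 4 and 6, p of 0.0635 to 0.0794). With 1 array fewer the smallest possible p is 0.0159 in place of 0.0079, so part of such a rise comes from the coarser test. The difference itself ran from -0.11 to -0.069.

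**Figure D2:**
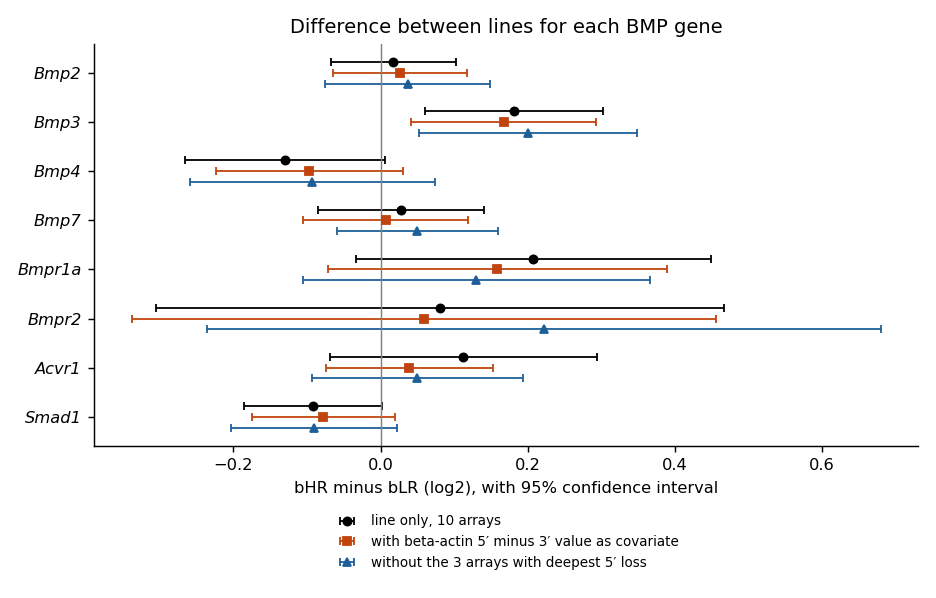
Difference between bHR and bLR in log2 units (x axis, bars are 95% confidence intervals from limma) for each BMP gene (y axis), fitted with line only, with the 5′ control value of beta-actin as a covariate, and without the 3 arrays with the deepest 5′ loss. Bmp3 stays between 0.17 and 0.20, whereas Acvr1 moves from 0.11 to 0.039 and 0.050.

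The arrays differed in how much signal they kept from the 5′ end of transcripts. The beta-actin control probe sets measure it, by the log2 signal at the 5′ end minus that at the 3′ end, and this value ran from -3.65 (bLR replicate 3), -2.89 (bLR replicate 2) and -2.30 (bHR replicate 6) to between -1.95 and -1.36 on the other 7. Across these 10 arrays, with line as a term, 1321 genes (13.3% of all) had a slope on this value that passed an adjusted p of 0.05 in limma, 526 (5.28%) positive and 795 (7.98%) negative. Of the 8 BMP genes 1 passed, Acvr1, a share near that background; it was also the only one of the 8 with an unadjusted p under 0.05, where 27.2% of all genes had one. Slopes were above 0 for 5 of the 8 and for 47.7% of all genes.

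Acvr1 was the member with a called slope on the 5′ value. Its slope was 0.17 log2 units per unit of 5′ minus 3′ difference (SE 0.036, 95% confidence interval 0.086 to 0.25; limma adjusted p = 0.0114), and the 3 arrays with the deepest loss held its 3 lowest values, 5.19, 5.32 and 5.35. The slope was also called with the GAPDH control in place of beta-actin (adjusted p = 0.0379) and with dap, a bacterial control RNA (adjusted p = 0.0108). Without bLR replicate 3 the slope was 0.18 and no longer passed (adjusted p = 0.0845), while it passed on leaving out any other single array (adjusted p = 0.0120 to 0.0291). Nor did it pass with all 12 arrays (0.15, limma adjusted p = 0.171) or without bLR replicates 2 and 3 together (0.28, limma adjusted p = 0.167). The difference of Acvr1 between the lines moved with how the 5′ value was handled. Adjusted for the beta-actin value it was 0.039 (95% confidence interval -0.075 to 0.15) in place of 0.11. With the GAPDH value it was 0.024, and without the 3 arrays with the deepest loss 0.050.

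None of the other slopes was called, and whether they differed from that of Acvr1 was not tested. Their intervals are wide: the Bmpr2 slope was 0.047 (95% confidence interval -0.23 to 0.33), and without bLR replicate 3 the slopes were 0.22 for Bmpr1a and 0.20 for Bmpr2 (limma adjusted p = 0.258 and 0.594), next to 0.18 for Acvr1. Bmp3 had a slope of 0.032 (95% confidence interval -0.055 to 0.12), and its difference between lines was 0.17 once the beta-actin value entered the fit, 0.16 with that of GAPDH and 0.20 without the 3 arrays. Bmpr1a had a slope of 0.11 (95% confidence interval -0.051 to 0.27), and its difference was 0.16 with the beta-actin covariate and 0.13 without the 3 arrays. For Bmp4, with a slope of -0.073 (95% confidence interval -0.16 to 0.016), the difference was -0.097 and -0.093 in these fits. Smad1 went from -0.092 to -0.078 with the covariate and to -0.091 without the 3 arrays. Bmpr2 had a difference of 0.22 without the 3 arrays, next to 0.18 without bHR replicate 6 alone, its lowest bHR array and 1 of the 3.

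**Figure D3:**
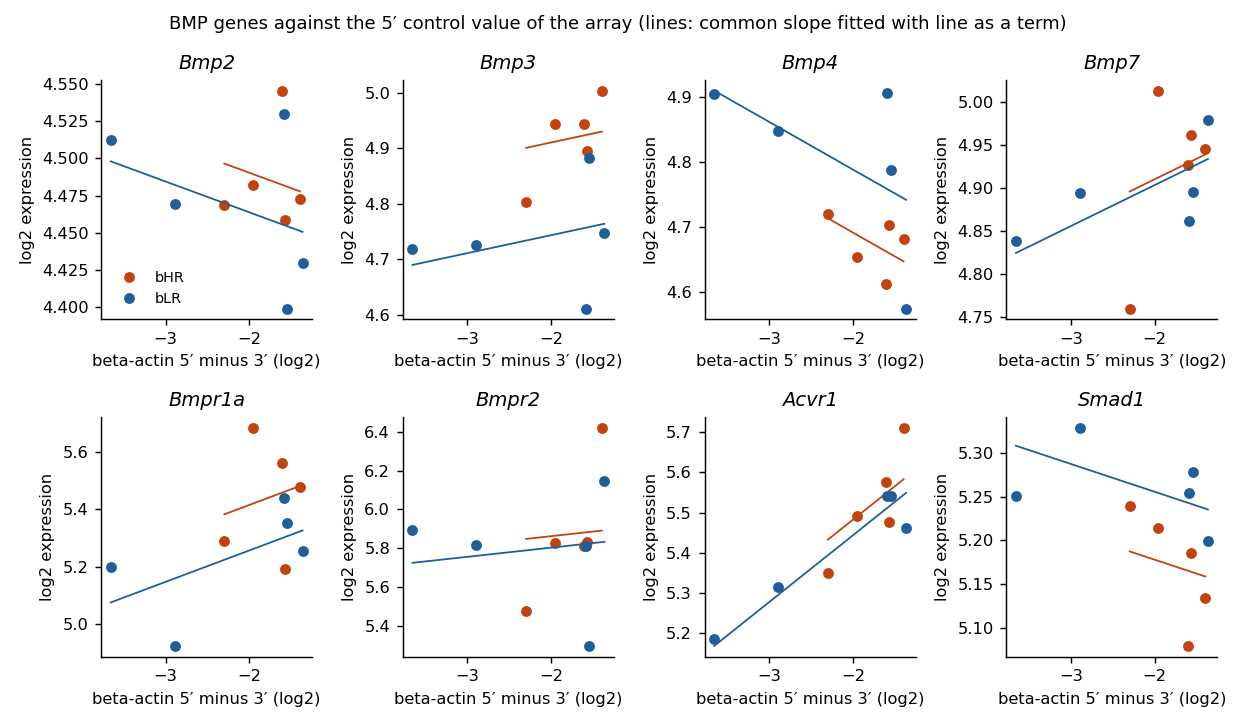
Log2 expression of each BMP gene (y axis, a separate scale per panel) against the beta-actin 5′ minus 3′ value of the array (x axis, log2 units) on the 10 passing arrays, with the common slope fitted with line as a term drawn through each line's mean. Acvr1 rises with a slope of 0.17, and the 2 bLR arrays at -3.65 and -2.89 hold 2 of its 3 lowest values.

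Choroid plexus, an epithelium next to the hippocampus that makes BMP ligands and their antagonist Sostdc1, varied between dissections. Of its 14 measured markers only 4 lay above the median gene. On average 12 of the 14 were higher in bHR and 2 lower. Their mean log2 level per array ran from 5.21 to 5.79 in bHR and from 5.09 to 5.56 in bLR. The choroid marker Ttr alone ran from 5.34 (bLR replicate 1) to 11.06 (bHR replicate 5). Slopes of the BMP genes per log2 unit of Ttr, with line as a term, lay between -0.014 (Bmp7) and 0.014 (Acvr1). Over the range of Ttr such slopes add up to more. In limma 0 of the 8 passed, where 0.0% of all genes did (0 of 9961). At an unadjusted p under 0.05 there were 2.24% of all genes and 0 of the 8. With Ttr as a covariate the differences between lines were 0.20 for Bmp3, -0.16 for Bmp4, 0.20 for Bmpr1a, 0.085 for Acvr1 and -0.097 for Smad1. Bmp7 went from 0.028 to 0.055 (95% confidence interval -0.071 to 0.18), Bmp2 from 0.017 to 0.00084 and Bmpr2 from 0.080 to 0.090. Markers of meninges and fibroblasts, another source of BMPs, showed 9 of 12 means higher in bHR, but only 4 of the 12 lay above the median gene. Their mean levels ran from 5.42 to 5.53 in bHR and from 5.37 to 5.49 in bLR. Their part in the results was not tested.

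Within lines, no slope of a BMP gene on the locomotor score of the rat was called. The slopes per 100 beam breaks ran from -0.21 (Bmpr2; SE 0.10, limma adjusted p = 0.989) to 0.028 (Bmp3), 0 of the 8 passed and 0.0% of all genes did (0 of 9962; 4.12% at an unadjusted p under 0.05, and 0 of the 8). For Bmpr2 the bHR rats with the highest score (replicate 6, 1328 beam breaks) and with the lowest (replicate 4, 1178) had its lowest and highest levels in that line. In bLR its lowest level was in the rat with the highest score, replicate 6 with 557 beam breaks, but its highest was in the next one, replicate 1 with 503, and the lowest scorers, replicates 3 (319) and 4 (362), lay between at 5.90 and 5.81. Omitting single arrays moved the slope to between -0.28 (bLR replicate 3 omitted) and -0.12 (bLR replicate 6 omitted), and it was not called in any of these fits.

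No pair of the 8 genes was called as rising and falling together across rats, and 10 arrays cannot show that none does. Over the 10 arrays, after centring within line, 14 of their 28 pairwise correlations were positive and 14 negative, and 0 of the 28 passed after Benjamini-Hochberg adjustment. The pair of receptors Bmpr1a and Acvr1 had a Pearson r of 0.540 (permutation p = 0.109, adjusted 0.525) and a Spearman rho of 0.614 (permutation p = 0.0651, adjusted 0.600), with r = 0.555 without the 2 arrays farthest from the median of Bmpr1a. Bmp4 and Bmp7 had an r of -0.581 (permutation p = 0.0971, adjusted 0.525) and a rho of -0.782 (permutation p = 0.0104, adjusted 0.290). Without the 2 arrays farthest from the median of Bmp4, r was -0.490. Other pairs hung on 2 arrays. Without those farthest from the median of Bmp3, its r with Bmpr2 went from 0.081 to 0.815. Without those farthest from the median of Bmp7, its r with Bmpr1a went from 0.290 to -0.189. Bmpr2, the one member above the median gene, was closest in pattern to Prl2b1 (r = 0.940), Slc16a3 (r = 0.933) and Ccdc61 (r = 0.931) over the 10 arrays centred within line. After removal of the beta-actin slope they were Asz1 (0.955), Prl2b1 (0.951) and Slc16a3 (0.948). These are the highest of 9962 genes on 10 arrays, and their mean levels, 4.41 for Asz1, 5.08 for Prl2b1, 5.35 for Slc16a3 and 5.36 for Ccdc61, lie below the median gene and within the range of the genes of other organs.

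The wider pathway gave 67 measured genes of 95 listed. None passed between the lines in limma, 41 were on average higher in bHR and 26 lower, and the median difference was 0.011. At an unadjusted p under 0.05 there was 1, Twsg1, where 2.94% of all genes had such a p. Adding the beta-actin value as a covariate left none called.

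The list of other BMP and GDF genes was split 4 to 4 (8 measured, median -0.0054). It includes Bmp1, a protease that shares the name without being a ligand and that was among the 4 lower in bHR. Bmp1 differed by -0.078, Gdf11 by 0.074 and Gdf10 by 0.094. Of 10 secreted antagonists and binders 7 were higher and 3 lower in bHR (median 0.011). Twsg1, which binds BMPs together with chordin, averaged 6.68 ± 0.20 on the log2 scale on the 5 bHR arrays and 6.95 ± 0.20 on the 5 bLR arrays (SD), which gave -0.27 (SE 0.11; limma adjusted p = 0.992), and -0.20 with the beta-actin covariate. Nbl1, an antagonist of the DAN family, differed by -0.20, and by -0.10 with that covariate. Fstl3, which binds activins, differed by 0.11. Sostdc1, the antagonist that is also a choroid plexus marker, had the largest positive difference of the 67 genes, 0.27 (limma adjusted p = 0.992; 0.26 with the beta-actin covariate), with a slope of 0.12 on Ttr. Noggin (Nog), the antagonist that opposes BMPs in the dentate gyrus, differed by 0.036 at a level of 4.40 in bHR and 4.36 in bLR, near the floor.

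Other receptors and co-receptors were higher in bHR for 9 of 10 and lower for 1 (median 0.035). Amhr2, the type II receptor of anti-Müllerian hormone, differed by 0.11, Bambi, a decoy receptor without a kinase, by 0.13 and Eng, a co-receptor of endothelium, by 0.068. The 15 other Smads and regulators leaned the other way, with 4 higher and 11 lower in bHR (median -0.038). Among them Smurf2, a ubiquitin ligase that removes Smads and receptors, differed by -0.073, the Smad corepressor Ski by -0.16 and Fkbp1a, which caps type I receptors, by 0.13. With the beta-actin covariate Ski was at -0.036, Bambi at 0.067 and Fkbp1a at -0.0091, on the other side of 0.

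Target genes did not follow one direction either. Of 15, 10 were higher and 5 lower in bHR (median 0.029), and the Id genes, the classical readout of BMP signalling, differed by -0.096 for Id1, 0.21 for Id2, 0.20 for Id3 and 0.13 for Id4. Atoh8 differed by 0.086 and Dlx5 by -0.051. In the TGF-beta and activin arm, which signals through Smad2 and Smad3, 8 of 11 were higher and 3 lower (median 0.029), with 0.056 for Tgfb3, 0.052 for Tgfb2 and 0.072 for Smad2.

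**Figure D4:**
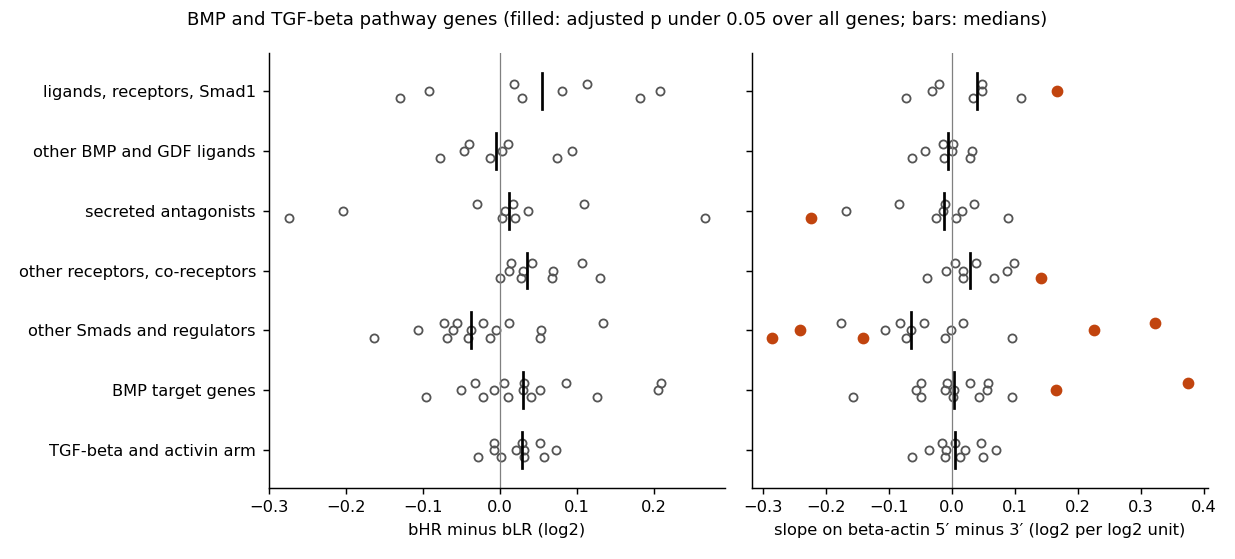
Difference between bHR and bLR (left, log2) and slope on the beta-actin 5′ minus 3′ value (right, log2 per log2 unit) for measured genes of the BMP and TGF-beta pathway by list (y axis; Smad6 and Smad7 stand in both Smad and target lists); each circle is a gene, filled where the limma adjusted p over all genes was under 0.05, and bars are medians. No circle is filled on the left; on the right Acvr1 and 9 other genes are filled.

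Slopes on the 5′ value were called for 9 of the 67 pathway genes, 5 positive and 4 negative, next to 13.3% of all genes. Fkbp1a (0.32, SE 0.039), Smad4 (0.22, SE 0.039), the partner of Smad1 in the nucleus, Id3 (0.37, SE 0.086), Id4 (0.16, SE 0.030) and Bambi (0.14, SE 0.041) were lower on arrays with deeper loss. Ski (-0.29, SE 0.044), its relative Skil (-0.24, SE 0.068), Nbl1 (-0.22, SE 0.053) and Smurf1 (-0.14, SE 0.037), a ubiquitin ligase, were higher on them. The differences between the lines moved with the covariate for the Id genes that were called: Id3 went from 0.20 to 0.039 and Id4 from 0.13 to 0.052. Without bLR replicate 3, 5 of the 9 calls were kept, those of Fkbp1a, Id4, Nbl1, Ski and Smad4. With the GAPDH control in place of beta-actin 6 were kept. Without bLR replicates 2 and 3 together 2 were kept, those of Nbl1 and Ski, where 225 of all genes were called. With all 12 arrays 0 were kept, where 15 of all genes were called.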

How the data were processed

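The deposited values are on the log2 scale; the authors used RMA (background correction, quantile normalization, probe summary), and the submitters' processing notes name affy 1.54.0. Probes were grouped by Entrez gene through custom definitions, release 19.0.0, as the design text of the series states. No genome build is named. The table held 10019 probe sets in 12 columns; its 57 controls entered no test. Identifiers were matched to the RefSeq table of assembly GRCr8 (9831 of 9962 named). Probe and protein sequences were not used here.

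Tests used limma 3.58.1 (R 4.3.3) across all 9962 genes (lmFit, eBayes, Benjamini-Hochberg, threshold 0.05) over the 10 passing arrays, with line as the term or with a slope on the beta-actin 5′ value (5′ minus 3′), on Ttr (9961 genes) or on locomotor score centred within line. Differences are bHR minus bLR. Single genes were also compared by exact permutation, and correlations used 100000 permutations. The steps were tested on simulated data. The p-values measure the spread between these arrays.

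Named genes are the members, up to 3 genes of each pathway list with the smallest p, and the genes closest to any member above the median gene; Nog, Sostdc1, Id1, Id2 and, for slopes, those called were chosen after their values were seen. The members and lists were chosen with earlier results of these data known. Alternatives were other array sets, filters, normalizations, priors, covariates and a block; leaving out bLR replicates 2 and 3 together was chosen after seeing the data.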

Additional observations from a re-analysis of the deposited data

Results flagged for a closer look

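Of 18 groups of 5 arrays examined, 1 value stood apart from the rest of its line: Bmp2 on bHR replicate 5 was 4.55, against 4.46 to 4.48 on the other 4 bHR arrays, a gap of 0.727 of the group's range where 0.71 is the limit; chance alone flags about 1 in 20 groups.

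The 2 arrays marked as failed, which entered no comparison, gave higher signals than every passing array for 3 of the 4 measured ligands. Bmp2 was 4.88 on bHR replicate 1 and 4.71 on bLR replicate 5, above the 4.40 to 4.55 of the passing arrays. Bmp4 was 5.17 and 4.98 on them, above 4.57 to 4.91, and Bmp7 was 5.91 and 5.06, above 4.76 to 5.01. Bmp3 was 4.85 and 4.62, within the range of the passing arrays. The same 2 arrays had a mean correlation with all other arrays of 0.700 and 0.896, against 0.946 or more for the passing ones. Some marker lists of cell types also lay outside the passing range on them. Mean levels of meninges and fibroblast markers were 5.82 and 5.61, against 5.37 to 5.53. Endothelial and mural markers were higher too (5.68 and 5.57, against 5.32 to 5.42). So was the median gene (5.66 and 5.53, against 5.48 to 5.52). Mean levels of hippocampal neuron markers were 6.86 and 7.57, against 8.02 to 8.23. Astrocyte markers (6.86 and 7.54, against 7.88 to 8.14) were lower as well. The same held for oligodendrocyte markers (6.58 and 7.29, against 7.88 to 8.24) and interneuron markers (6.03 and 6.29, against 6.60 to 6.90). Choroid plexus markers lay within the passing range on both, and microglia markers on bHR replicate 1. What these shifts come from was not tested. The share of all genes above every passing array on both was not computed, so the count is no trait of the ligands.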

How the results depend on the processing

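No BMP gene and no other gene was called between the lines under any alternative, the replicate block included, where 0 genes passed (limma; 1468 genes had an unadjusted p under 0.05 with the block, against 293 without it and 42 to 604 under the other alternatives). The block used the number in the sample titles: arrays of the 3 shared numbers had correlations of deviations of -0.334, 0.263 and 0.409, so pairing was not assumed; 1 pair of the 3 was a mutual best match, and what the numbers stand for is not stated. Only those 3 numbers hold both lines, so the block compares bHR replicates 2 to 4 with bLR replicates 2 to 4. The other arrays, each alone with its number, add nothing to it. Among them bLR replicates 2 and 3 had the deepest 5′ losses (-2.89 and -3.65), and none of those bHR arrays was among the 3 deepest. With the block Bmp2 differed by -0.033 in place of 0.017, Acvr1 by 0.21, Bmp3 by 0.26 and Bmp4 by -0.21. Bmp7 differed by 0.11, Bmpr1a by 0.26, Bmpr2 by 0.18 and Smad1 by -0.10. Of the 8, 4 had an unadjusted limma p under 0.05, where 1468 of all genes had one, and the cause was not tested. The count of BMP genes with an exact permutation p under 0.05 was 2, with no share over all genes computed beside it. It was 1 with all 12 arrays and with quantile normalization repeated. Without the 3 arrays with the deepest 5′ loss it was 0, where 4 against 3 cannot go below 0.0571. It was 1 to 3 without single arrays, where the test cannot go below 0.0159. Bmp3 kept a p of 0.0159 to 0.0317 over the latter. Genes called for the slope on beta-actin numbered 15 with all 12 arrays and 225 without bLR replicates 2 and 3, with 0 BMP genes in each, and 713 to 1302 without single arrays (0 to 1 BMP genes). Acvr1 had slopes of 0.15 (adjusted p = 0.171) and 0.28 (adjusted p = 0.167) in the former. Slopes that changed sign were never called. They were those of Bmp2 (0.043 with all 12 arrays, 0.0030 without bLR replicates 2 and 3), Bmpr2 (-0.0040 with GAPDH, -0.041 to 0.20 without single arrays, 0.86 with an adjusted p of 0.139 without bLR replicates 2 and 3) and Bmpr1a (-0.0042 without bLR replicates 2 and 3) on beta-actin, and of Acvr1 on locomotor score (-0.033 with the beta-actin covariate, -0.071 to 0.054 without single arrays). Without single arrays the slope on Ttr ran from -0.0019 to 0.026 for Bmp4, -0.031 to 0.039 for Bmpr1a, -0.030 to 0.023 for Bmpr2 and -0.0037 to 0.0079 for Smad1. On locomotor score it ran from -0.0090 to 0.051 for Bmp3, -0.028 to 0.025 for Bmp7, -0.073 to 0.013 for Bmpr1a and -0.0039 to 0.021 for Smad1. The difference of Bmpr2 between lines ran from -0.056 to 0.18. With the lowest 25% of genes left out, Bmp2 and Bmp4 had no value. Signal near the floor limits what the ligands can show.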
